A study of Mus musculus with 6 samples.

Results

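The 10 genes followed here report on, and restrain, signalling through the MAP kinase ERK, and they were measured in mouse tongue tumours. They are the phosphatase genes Dusp4, Dusp5 and Dusp6, the Sprouty genes Spry2 and Spry4, Phlda1, and the transcription factor genes Fosl1, Egr1, Etv4 and Etv5. These 10 genes, of 18437 in the table, were chosen by name, with their LIGHT and control values already known. Their differences between the groups are therefore given as a description, with no p-value. The genes stayed in the fit over all genes, and where it called them the calls are counted beside the share of all genes called, with nothing read from them. The tumours formed after cells of 4MOSC1, an oral squamous carcinoma line of mouse origin, were injected into the tongue of C57BL/6 mice. One group received control cells (3 libraries). The other received cells that overexpress LIGHT (3 libraries), a TNF superfamily ligand encoded by Tnfsf14 that signals through the lymphotoxin beta receptor and the herpesvirus entry mediator. The labels give no age, no time of collection, no vector or promoter for LIGHT and no word on whether the lines are single clones, and they tie no library to an animal.

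ERK is the last kinase of a relay that runs from growth factor receptors such as EGFR through RAS, RAF and MEK. Active ERK switches on a set of genes whose products act back on the relay: dual-specificity phosphatases remove the activating phosphates from MAP kinases, and Sprouty proteins dampen signalling between receptors and RAF. Other targets, among them AP-1 and ETS family transcription factors, pass the signal on to further genes. Transcripts of such genes are widely used as a readout of ERK pathway output in epithelial cancers, where the pathway drives growth.

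Levels are in TPM (a share of all transcripts, corrected for gene length), which keep no record of sequencing depth. Each library had between 12713 and 13271 genes at 1 TPM or more. Tnfsf14, the check of the labels, was at 0.660 ± 0.130 TPM in the controls and 25.3 ± 1.28 TPM with LIGHT (mean ± SD, n = 3 each). In the limma fit the log2 difference was 3.99, with an SE of 0.11 and an adjusted p of 7.01e-06. All control libraries were under 1 TPM, so Tnfsf14 passed the filter on low values through the LIGHT libraries alone, which fixes the direction of its difference. Fold changes throughout are differences of log2(TPM + 1), LIGHT minus control, which understate the change of low genes. A gene is said to be called, or to have risen or fallen, where its Benjamini-Hochberg adjusted p from limma was under 0.05 among the 13167 genes tested. Markers of basal keratinocytes, the cell type from which squamous carcinomas arise, were abundant, with a summed level of 17544 to 21246 TPM over 13 genes in control and 14204 to 19318 TPM with LIGHT, and 0 of the 13 were called. Krt14 and Krt5 carried most of that sum, with control means of 11421 and 4875 TPM. Krt14 and Trp63 were lower in every LIGHT library, at 78.1% and 77.2% of their control means. Epcam was higher in every LIGHT library, and the other 10 markers overlapped between the groups.

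All 10 genes had a lower mean in LIGHT than in control tumours. Of the 13167 genes tested, 4973 had a log2 fold change below 0. The mean of Fosl1 in LIGHT tumours was 44.0% of its control mean, that of Dusp5 45.1% and that of Phlda1 46.5%, while that of Etv5 was 86.5%. In Dusp4, Dusp5, Dusp6, Spry2, Phlda1 and Etv4, every LIGHT library lay below every control library. In Fosl1, Egr1, Etv5 and Spry4 the groups overlapped. Summed over the 10 genes, the level was 619, 428 and 445 TPM in the control libraries and 309, 272 and 266 TPM in the LIGHT libraries.

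Of the 10 genes 9 reached 1 TPM in at least 3 libraries and were tested, Spry4 being the exception. The 6 with separate groups were all called lower and none was called higher. Over all tested genes 5.41% were called lower (712 genes), 17.7% were called higher (2325 genes) and in 11.6% all LIGHT libraries lay below all control libraries. In 3896 of the 13167 tested genes all LIGHT libraries lay above all control libraries. The 10 genes were chosen with this contrast known, so nothing is read from their count. The median log2 fold change was -0.63 over the 10 genes and 0.09 over all tested genes. The split of all calls rests on the scaling: higher calls were 76.6% of calls on the deposited values, 51.0% with trimmed-mean factors and 43.7% once the libraries had been quantile normalized, which moved the median of all tested genes to -0.04. All 10 genes stayed below 0 under both scalings.

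**Figure D1:**
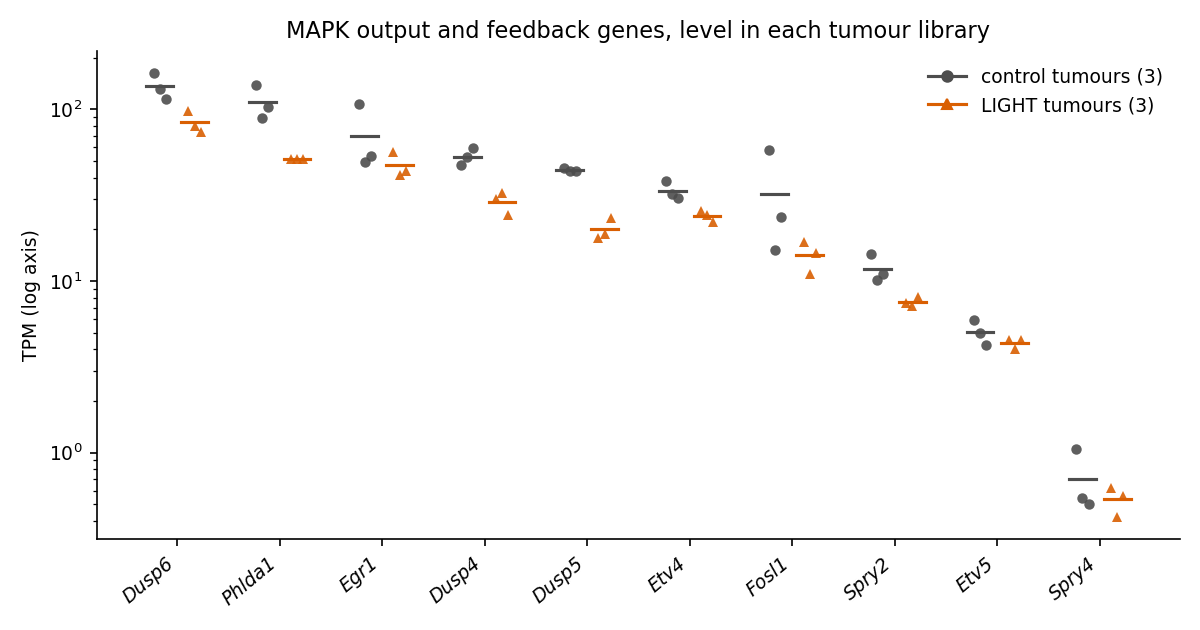
Level in TPM (log axis) of each of the 10 ERK output and feedback genes in the 3 control and 3 LIGHT libraries (points), with short bars at the group means. The libraries of the groups do not overlap in Dusp4, Dusp5, Dusp6, Spry2, Phlda1 and Etv4, and they overlap in Egr1, Fosl1, Etv5 and Spry4.

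The 3 phosphatases belong to the family that inactivates MAP kinases: Dusp6 works on ERK in the cytoplasm, Dusp5 on ERK in the nucleus, and Dusp4 is a nuclear phosphatase with a wider range of MAP kinase substrates. Dusp6 (chromosome 10, 99263231 to 99267489, GRCm38) was the most abundant of the 10 genes, at 163, 131 and 114 TPM in the controls and 97.9, 80.5 and 73.6 TPM with LIGHT. Its highest LIGHT library stood below its lowest control library, and its log2 fold change was -0.69 (SE 0.15). Dusp5 (chromosome 19, 53529109 to 53542431) was at 45.4, 43.6 and 43.9 TPM in the controls and 17.9, 18.9 and 23.2 TPM with LIGHT. The control libraries of Dusp5 were close together (SD 0.973 TPM) and every LIGHT library was far below them. Its log2 fold change of -1.12 (SE 0.11) was the lowest of the 10. Dusp4 (chromosome 8, 34807297 to 34819894) was at 47.2, 52.6 and 59.4 TPM in the controls and 30.1, 32.7 and 24.3 TPM with LIGHT, a log2 fold change of -0.85 (SE 0.13). Every library of both groups had more Dusp4 than Dusp5.

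The start sites of Dusp5 and Dusp6 are shown because these genes had the lowest log2 fold change and the highest level, and because their windows alone held a match among the promoter windows found for the 10 genes. Windows run from 250 bases before to 50 bases after the annotated start (RefSeq, GRCm38.p6), and 5 windows were matched, for Dusp5, Dusp6, Spry2 and Etv5. The motifs searched, on both strands, were the CArG box bound by serum response factor, CGGAAG (an ETS core), TGANTCA (an AP-1 site), TGACGTCA (a CRE) and GCGNGGGCG (an EGR site). In the sequences below capitals mark the match.
Dusp5, chr19:53528895-53529194, plus strand: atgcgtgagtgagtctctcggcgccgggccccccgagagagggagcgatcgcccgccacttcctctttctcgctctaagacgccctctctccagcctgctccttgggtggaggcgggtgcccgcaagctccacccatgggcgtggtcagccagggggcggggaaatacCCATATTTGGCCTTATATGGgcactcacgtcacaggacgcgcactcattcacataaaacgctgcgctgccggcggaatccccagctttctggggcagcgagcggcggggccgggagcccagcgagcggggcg
Dusp6, chr10:99262981-99263280, plus strand: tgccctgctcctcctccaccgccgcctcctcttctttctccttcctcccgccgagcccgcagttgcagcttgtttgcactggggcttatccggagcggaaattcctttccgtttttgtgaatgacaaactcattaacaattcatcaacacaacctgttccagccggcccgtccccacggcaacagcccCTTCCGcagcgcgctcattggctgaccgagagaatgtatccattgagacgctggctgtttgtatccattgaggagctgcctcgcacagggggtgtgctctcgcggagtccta
The Dusp5 window holds 2 CArG boxes side by side, CCATATTTGG at -82 to -73 and CCTTATATGG at -72 to -63 from the start. A CArG box occurs in 1.63% of all 32851 promoter windows, and 2 or more in 6 windows (0.0183%). One of these belongs to Srf, the gene of serum response factor itself, which was at 31.6 TPM in the controls and 28.5 TPM with LIGHT and was not called. The Dusp6 window holds CGGAAG on the other strand, seen as CTTCCG at -62 to -57, which is found in 16.9% of windows. The other 3 windows held none of the motifs. A match describes the letters of the window and was not tested for binding.

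Spry2 and Spry4 encode Sprouty proteins, which are induced by receptor signalling and then damp the path from receptor to RAF. Spry2 (chromosome 14, 105891947 to 105896819) was at 14.4, 10.1 and 10.9 TPM in the controls and 7.47, 7.10 and 8.05 TPM with LIGHT. The LIGHT libraries were close together (SD 0.479 TPM) and lay below all the control libraries, with a log2 fold change of -0.57 (SE 0.14). Spry4 (chromosome 18, 38586247 to 38601415) was the least abundant of the 10, at 1.05, 0.540 and 0.5 TPM in the controls and 0.620, 0.420 and 0.560 TPM with LIGHT. The first control library stood apart from the other 5, which overlapped, and without it the log2 difference of Spry4 was 0.01 in place of -0.13.

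Phlda1 encodes a small pleckstrin-homology-domain protein whose transcript is induced by ERK signalling. Phlda1 (chromosome 10, 111506286 to 111508645) was at 139, 89.0 and 104 TPM in control tumours. In LIGHT tumours it was at 51.4, 51.6 and 51.2 TPM, an SD of 0.201 TPM against 25.7 TPM in control. The groups were well separated, and the log2 fold change was -1.07 (SE 0.15).

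Transcripts of immediate early and feedback genes are often short-lived, and the AU-rich element TATTTAT in a 3′ UTR is a feature of many unstable mRNAs. In the longest coding transcript of each gene (GENCODE M21), TATTTAT occurred once or more in the 3′ UTR of 5 of the 10 genes, against 26.6% of 12635 tested genes with a 3′ UTR and 33.6% of the 6828 with a 3′ UTR of 612 to 3559 bases, the range of the 10. Spry4 had 4 copies, Phlda1 and Spry2 had 2 each, and Fosl1 and Etv5 had 1 each. At least 2 copies were found in 9.03% of all these genes and in 10.5% of those in the length range. Windows of 27 bases around the element, in capitals and on the transcript's strand, are shown for called genes with the element and for Fosl1.
Phlda1, chr10:111508251-111508277: gagatgacttTATTTATggacctttgg
Phlda1, chr10:111508349-111508375: ggattatgatTATTTATtagttttttt
Spry2, chr14:105892093-105892119: gtgtaaagaaTATTTATttgaagtttt
Spry2, chr14:105892054-105892080: aaaaaaagaaTATTTATtttaagaggc
Fosl1, chr19:5455868-5455894: gggcagctgcTATTTATtttcctaaag
Dusp4, Dusp5, Dusp6, Etv4 and Egr1 had no TATTTAT. The element was present in Phlda1 and Spry2 and absent in Dusp5 and Dusp4. Its part in the levels of these genes was not tested. The 10 genes also had few exons: 8 of them had 5 or fewer, against 28.8% of the tested genes, and Etv4 and Etv5 had 13 each. Transcript stability was not measured.

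Among the transcription factors, Etv4 and Etv5 encode PEA3 family ETS factors, whose transcripts follow FGF and ERK signalling in many tissues. Etv4 (chromosome 11, 101769742 to 101785371) was at 38.2, 32.2 and 30.4 TPM in the controls and 25.7, 24.3 and 22.1 TPM with LIGHT, with no overlap and a log2 fold change of -0.46 (SE 0.11). Etv5 (chromosome 16, 22381309 to 22439719) was at 5.92, 4.97 and 4.24 TPM in the controls and 4.55, 4.01 and 4.53 TPM with LIGHT. Its groups overlapped, and its log2 fold change of -0.16 (SE 0.13) was the nearest to 0 among the 9 tested.

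Fosl1 encodes FRA1, an AP-1 subunit that accumulates while ERK stays active. Fosl1 (chromosome 19, 5447547 to 5455946) was at 57.7, 15.1 and 23.7 TPM in the controls and 17, 10.9 and 14.6 TPM with LIGHT. A single control library was far above the other 5, and the log2 fold change of -0.94 had an SE of 0.42. Without that library it was -0.42.

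Egr1 encodes a zinc finger factor whose transcript rises within minutes of ERK activation. Egr1 (chromosome 18, 34859823 to 34864984) was at 107, 49.1 and 53.9 TPM in the controls and 56.7, 41.5 and 44.0 TPM with LIGHT. The first library of each group was the highest, and the first LIGHT library stood above both of the lower control libraries. Its log2 fold change was -0.48 (SE 0.28) with all libraries and -0.13 without control replicate 1.

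**Figure D2:**
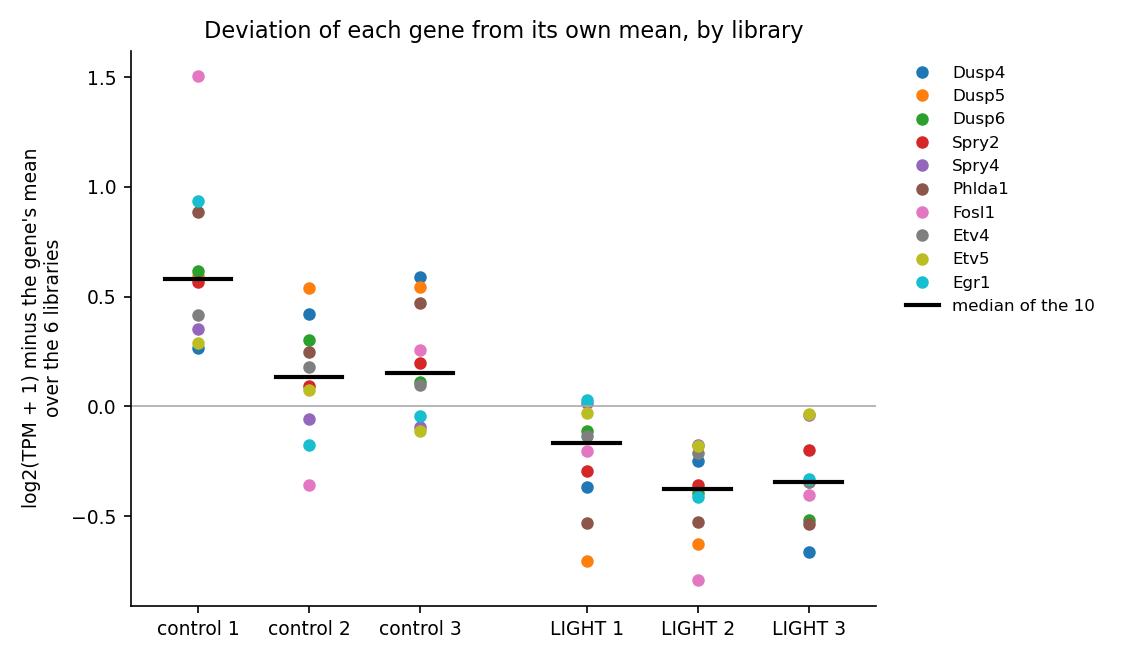
Log2(TPM + 1) of each of the 10 genes in each library, centred on the gene's own mean over the 6 libraries, with bars at the median of the 10 genes. Control replicate 1 is the highest control library for 9 of the 10 genes, and the bars lie above 0 in the 3 control libraries and below 0 in the 3 LIGHT libraries.

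In control tumours the order of levels was Dusp6, Phlda1, Egr1, Dusp4, Dusp5, Etv4, Fosl1, Spry2, Etv5 and Spry4. TPM are per length, so these levels can be compared between genes. The ranges over the control libraries overlapped for the neighbours Dusp6 and Phlda1, Phlda1 and Egr1, Egr1 and Dusp4, and Etv4 and Fosl1. Within each control library Dusp6 stood above Phlda1 and Phlda1 above Egr1, while the order of the other pairs differed between libraries. In LIGHT tumours the order of the means was the same except that Etv4 stood above Dusp5. The ranges of Phlda1 and Egr1, of Dusp4 and Etv4, and of Etv4 and Dusp5 overlapped. Within each LIGHT library Dusp4 stood above Etv4, while the order of the other overlapping pairs differed between libraries.

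Control replicate 1 was the highest control library for 9 of the 10 genes, Dusp4 being the exception, where it was the lowest. It was also the highest control library for 52.7% of all tested genes. Without it the median log2 fold change of the 10 genes was -0.42 in place of -0.63, and 5 in place of 6 genes were called lower, the call lost being that of Etv4. Dusp5 was at -1.10, Phlda1 at -0.89, Dusp4 at -0.93, Dusp6 at -0.55 and Spry2 at -0.43 without it. Leaving out LIGHT replicate 2 or LIGHT replicate 3 left 3 genes called, namely Dusp4, Dusp5 and Phlda1. These counts describe the fit and lend the chosen genes no support.

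Levels of other cell types differed between the groups as well, and in bulk tissue fewer cells of a type and less RNA per cell cannot be told apart. T cell markers were higher in every LIGHT library, at a summed 202 to 252 TPM against 56.4 to 129 TPM in control. Of these markers 7 of 8 rose (87.5%, against 17.7% of all tested genes). Macrophage markers were at 964 to 1331 TPM against 606 to 701 TPM, and 4 of 8 rose (50%). Skeletal muscle markers, which come from the tongue, were at 4655 to 7901 TPM in LIGHT and 3061 to 5268 TPM in control tumours, and 0 of 12 were called, though all 12 had a log2 difference above 0. Over all 13167 tested genes, 4973 had a log2 difference below 0. Neutrophil markers were at 1376 to 1771 TPM in the controls and at 2962, 420 and 2220 TPM with LIGHT, where LIGHT replicate 2 stood apart. S100a8 and S100a9 carried most of these sums and were at 105 and 253 TPM in LIGHT replicate 2. Csf3r, Cxcr2 and Retnlg were not low there, at 23.2, 3.27 and 33.7 TPM against control means of 18.8, 3.38 and 12.2 TPM. Mmp8 and Ly6g were under 1 TPM in that library. Red cell markers were at 70.0, 453 and 86.8 TPM in the controls and 119, 2086 and 896 TPM with LIGHT, a mean 5.09 times as high although the libraries overlapped and 0 genes were called. Fibroblast and tissue stress lists overlapped between the groups with 0 genes called, and endothelial markers overlapped with 2 of 7 called higher (28.6%). Among the lists with 0 calls in limma, an unadjusted p under 0.05 was reached by 6 of 12 skeletal muscle, 3 of 13 basal keratinocyte, 1 of 7 fibroblast and 1 of 7 tissue stress genes, and by 0 of the neutrophil and red cell genes tested. Proliferation genes were at 527 to 617 TPM in LIGHT and 683 to 813 TPM in control tumours. Of these, 10 of 10 fell (100%, against 5.41% of all tested genes), with a median log2 difference of -0.44. The part of immune cells and of proliferation in the lower levels of the 10 genes was not tested.

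With the basal keratinocyte markers as a covariate the median of the 10 genes was -0.61 and 7 were called lower, Fosl1 being added. With the skeletal muscle markers as a covariate the median was -0.84, with a wider error (median SE 0.20 against 0.14 over the tested genes of the 10), and Dusp5 and Phlda1 remained called. That covariate also took the number of calls among all genes from 3037 to 763.

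The wider pathway was read from 9 lists of genes that exclude the 10, with 87 genes tested. On the deposited values 12 of these rose (13.8%, against 17.7% of all tested genes) and 17 fell (19.5%, against 5.41%). Their median log2 difference was -0.05. These shares depend on the scaling. With trimmed-mean factors 11 rose and 24 fell, beside 1800 and 1731 of the 13167 tested genes. After quantile normalization 10 rose and 26 fell, beside 1410 and 1813. The lists were written with earlier results of these data known.

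**Figure D3:**
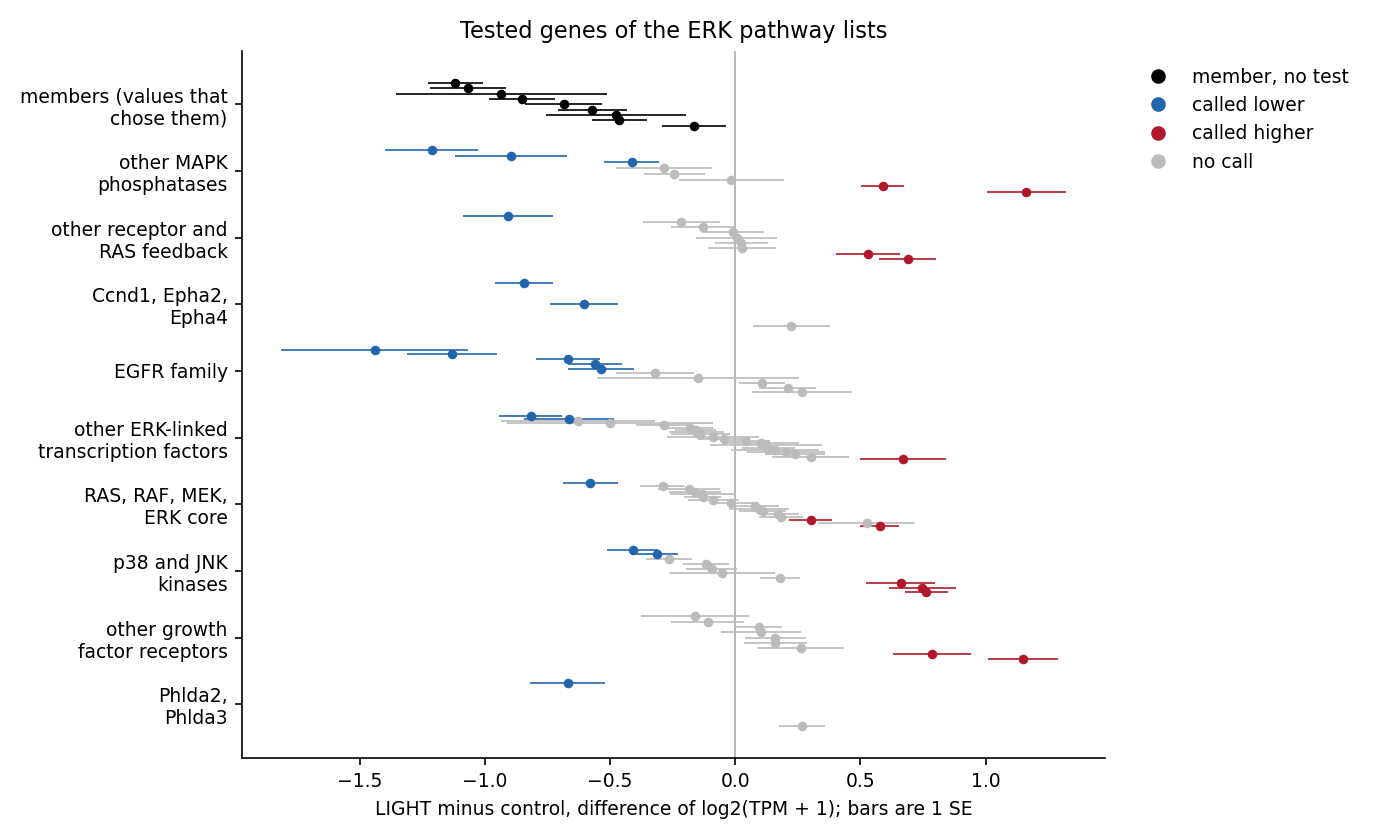
Difference of log2(TPM + 1), LIGHT minus control, with 1 SE, for the tested genes of each list of the ERK pathway, with the 9 tested output and feedback genes in the top row. The EGFR family row holds 5 genes called lower (50%, against 5.41% of all tested genes) and 0 called higher. Of the other 8 lists, 5 hold called genes on both sides of 0.

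Hbegf, Areg, Tgfa and Btc encode ligands of the EGF receptor family. They were lower in every LIGHT library than in any control library, as were 11.6% of all tested genes. The other tested ligand genes did not share this and were not called. Epgn and Ereg overlapped between the groups, with log2 differences of -0.15 and 0.27. Egf was near 1 TPM and higher in every LIGHT library, with a log2 difference of 0.21. Of 10 EGFR family genes tested, 5 fell (50%, against 5.41% of all tested genes) and 0 rose (against 17.7%). The median log2 fold change of the family was -0.43. Hbegf, which encodes heparin-binding EGF-like growth factor, was at 109, 68.8 and 88.1 TPM in the controls and 47.2, 36.0 and 35.5 TPM with LIGHT. The groups did not overlap (limma: log2 difference -1.13, SE 0.18, adjusted p = 0.00585). Areg, the amphiregulin gene, lay outside the naming rule and was added after its values were seen: it was at 95.3, 30.3 and 48.9 TPM in the controls and 22.7, 14.3 and 19.8 TPM with LIGHT, a log2 difference of -1.44 (limma SE 0.37, adjusted p = 0.0299). As in Fosl1, the first control library of Areg stood far above the others. The call of Areg was lost when control replicate 3, LIGHT replicate 2 or LIGHT replicate 3 was left out (adjusted p up to 0.0883). Tgfa, the TGF-alpha gene, fell from 22.0 ± 3.10 to 13.4 ± 1.42 TPM, a log2 difference of -0.67 (limma SE 0.13, adjusted p = 0.0111). Btc, which encodes betacellulin, fell from 5.10 ± 0.234 to 3.23 ± 0.647 TPM, a log2 difference of -0.54 (limma SE 0.13, adjusted p = 0.0248). Its call was lost on leaving out any of control replicates 2 and 3 and LIGHT replicates 2 and 3, with an adjusted p of up to 0.0950.

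Among the receptors of that family, Erbb3, which encodes the kinase-impaired partner of the other family members, fell from 24.0 ± 0.450 to 16.1 ± 2.05 TPM (limma: log2 difference -0.56, SE 0.11, adjusted p = 0.0111). Egfr was at 35.7, 31.7 and 31.7 TPM in the controls and 33.0, 20.9 and 26.0 TPM with LIGHT and was not called. On leaving out control replicate 3 or either of LIGHT replicates 2 and 3 the family had 3 genes called lower in place of 5, and with the skeletal muscle covariate 1.

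**Figure D4:**
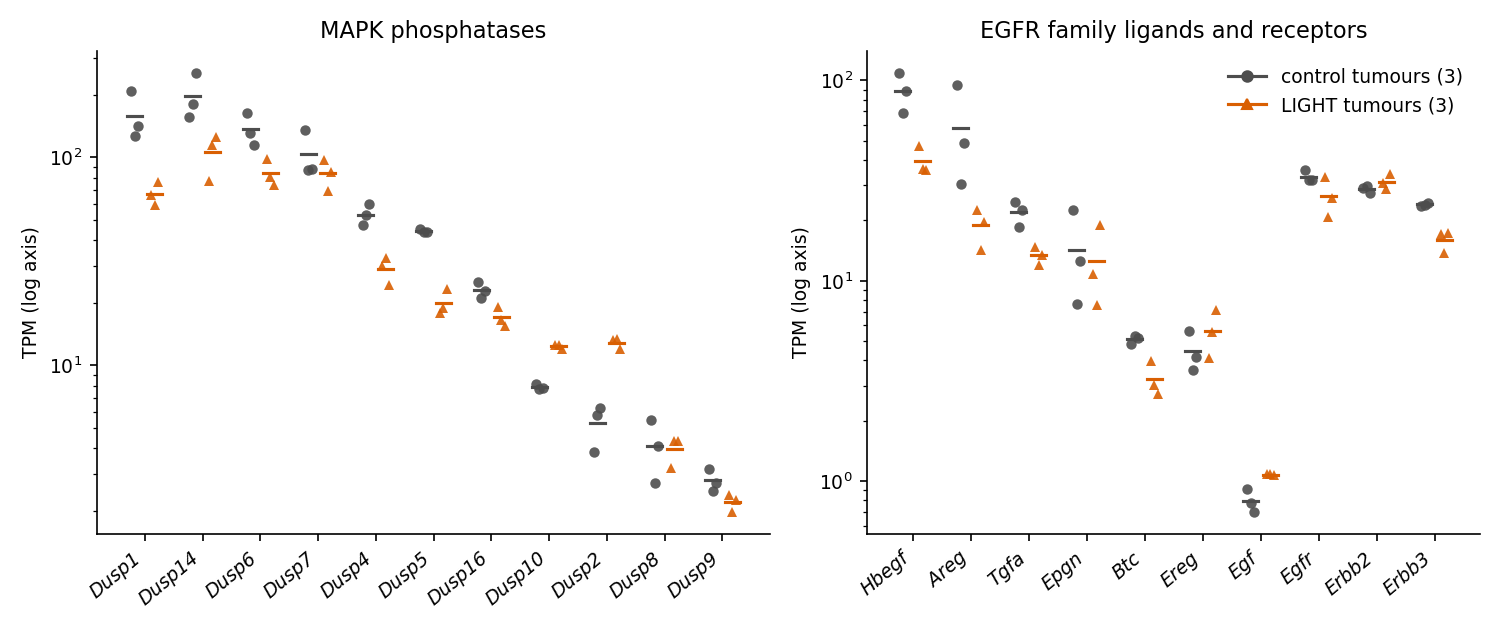
Level in TPM (log axis) of the MAP kinase phosphatase genes and of the tested EGFR family genes in the 3 control and 3 LIGHT libraries (points), with short bars at the group means. Dusp4, Dusp5, Dusp6, Dusp1, Hbegf and Areg lie lower in every LIGHT library, and Dusp2 and Dusp10 lie higher.

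The other MAP kinase phosphatase genes moved in both directions. Of 8 tested, 2 rose (25%, against 17.7% of all tested genes) and 3 fell (37.5%, against 5.41%). Their median log2 difference was -0.26. Dusp1, an immediate early phosphatase acting on p38, JNK and ERK, was at 208, 127 and 142 TPM in the controls and 65.8, 58.8 and 76.1 TPM with LIGHT (limma: log2 difference -1.21, SE 0.19, adjusted p = 0.00523). Dusp2, a nuclear phosphatase abundant in activated leukocytes, was at 3.85, 5.77 and 6.22 TPM in the controls and 13.2, 13.4 and 12.1 TPM with LIGHT (limma: log2 difference 1.16, SE 0.16, adjusted p = 0.00357). Dusp1 and Dusp2 thus moved in opposite directions, both with no overlap between groups and both called under every alternative run. T cell and macrophage markers were higher in the same LIGHT libraries as Dusp2, and their part in its rise was not tested. Dusp10, which acts mainly on p38 and JNK, rose from 7.87 ± 0.212 to 12.3 ± 0.331 TPM (limma: log2 difference 0.59, SE 0.09, adjusted p = 0.00453). Dusp14, an atypical dual-specificity phosphatase gene, fell from 198 ± 51.2 to 106 ± 25.6 TPM (limma: log2 difference -0.90, SE 0.23, adjusted p = 0.0273). That call was lost when control replicate 2 or 3, or LIGHT replicate 1 or 2, was left out, with an adjusted p of up to 0.0744. Dusp16, outside the naming rule and added after its values were seen, fell from 23.0 ± 1.97 to 17 ± 1.87 TPM (limma: log2 difference -0.41, SE 0.11, adjusted p = 0.0330), a call lost on leaving out any library but LIGHT replicate 1 (adjusted p up to 0.124). On leaving out control replicate 2, control replicate 3 or LIGHT replicate 2, Dusp1 alone of these 8 was called lower.

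Ratios within a library do not depend on the total to which TPM are scaled. The ratio of Dusp5 to Dusp2 was 11.8, 7.56 and 7.05 in control and 1.35, 1.42 and 1.92 in LIGHT tumours. Dusp4 to Dusp10 was 6.76 on average in control and 2.35 in LIGHT tumours, and Dusp6 to Dusp7 was 1.34 and 1.01, both without overlap. The 10 genes were chosen by name with their LIGHT and control values known. Dusp2 and Dusp10 were both called higher. So the fall of the ratios that pair them with Dusp5 and Dusp4 follows from the choice. All ratios here are given as values, without a test.

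Of 9 other feedback regulators tested, 2 rose (22.2%, against 17.7% of all tested genes), 1 fell (11.1%, against 5.41%) and the median log2 fold change was 0.01. Errfi1 encodes MIG6, an inhibitor that binds the EGFR kinase domain; it was at 68.4, 40.1 and 50.3 TPM in the controls and 25.5, 26.5 and 29.4 TPM with LIGHT (limma: log2 difference -0.91, SE 0.18, adjusted p = 0.0120). Spry1 was at 10.5, 8.81 and 11.6 TPM in the controls and 16.4, 16.9 and 18.1 TPM with LIGHT (limma: log2 difference 0.69, SE 0.11, adjusted p = 0.00675). So Spry1 was higher in every LIGHT library, as were 3896 of the 13167 tested genes. Its relative Spry2 was lower in every LIGHT library, as were 11.6% of them. The ratio of Spry2 to Spry1 was 1.37, 1.14 and 0.942 in control and 0.455, 0.420 and 0.445 in LIGHT tumours. Its separation follows from those levels, Spry2 having been chosen with its values known. Spred2, a Sprouty-related inhibitor of RAS signalling, rose from 7.64 ± 1.21 to 11.4 ± 0.945 TPM (limma: log2 difference 0.53, SE 0.13, adjusted p = 0.0235). That call was lost when control replicate 2 or 3, or LIGHT replicate 1 or 3, was left out (adjusted p up to 0.0715).

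Epha2 and Epha4, which encode Eph receptor kinases, and Ccnd1, which encodes cyclin D1, stand with several of the 10 in published scores of ERK output. Epha2 was at 241, 206 and 232 TPM in the controls and 144, 124 and 110 TPM with LIGHT (limma: log2 difference -0.84, SE 0.12, adjusted p = 0.00366). Epha4 fell from 13.1 ± 1.10 to 8.35 ± 1.53 TPM (limma: log2 difference -0.60, SE 0.13, adjusted p = 0.0183), a call lost when control replicate 3, LIGHT replicate 2 or LIGHT replicate 3 was left out (adjusted p up to 0.0695). Ccnd1 was at 208, 156 and 142 TPM in the controls and 225, 184 and 178 TPM with LIGHT. Its groups overlapped and its log2 fold change was 0.22 (limma SE 0.16, adjusted p = 0.334). The ratio of Epha2 to Ccnd1 was 1.16, 1.32 and 1.63 in control and 0.643, 0.670 and 0.621 in LIGHT tumours. Epha2 was already called lower, and the ratio was not tested.

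Another list held 20 genes linked to ERK, most of them transcription factor genes. Of these 1 rose (5%, against 17.7% of all tested genes) and 2 fell (10%, against 5.41%). Their median log2 difference was -0.07. Ier3, an immediate early gene that is not itself a transcription factor gene, fell from 229 ± 63.0 to 141 ± 15.6 TPM (limma: log2 difference -0.66, SE 0.18, adjusted p = 0.0357). Ets1 rose from 8.96 ± 1.83 to 14.8 ± 2.42 TPM (limma: log2 difference 0.67, SE 0.17, adjusted p = 0.0291). Ier3 lost its call without control replicate 3 or any LIGHT library (adjusted p up to 0.0871). Ets1, abundant in lymphocytes, lost its call when control replicate 2 or 3, or LIGHT replicate 1 or 3, was left out (adjusted p up to 0.0907). Etv1, the third PEA3 factor, was at 1.53, 1.46 and 1.98 TPM in the controls and 0.520, 0.550 and 0.440 TPM with LIGHT (limma: log2 difference -0.82, SE 0.13, adjusted p = 0.00541). It passed the filter through the 3 control libraries alone, which fixes its direction, and it was not tested when any of them was left out.

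Fos, the AP-1 gene that responds first to ERK, was at 52.3, 27.9 and 22.0 TPM in the controls and 21.4, 15.4 and 25.2 TPM with LIGHT and was not called. Fosb, its relative, was at 15.2, 4.86 and 5.47 TPM and 4.70, 3.30 and 7.85 TPM and was not called either. In both, as in Fosl1, Egr1 and Areg, control replicate 1 was the highest library, and the groups overlapped in Fos and Fosb. Fosl2 was at 57.7, 47.3 and 49.6 TPM in the controls and 42.7, 37.4 and 46.0 TPM with LIGHT, with no overlap but no call (limma: log2 difference -0.29, SE 0.11, adjusted p = 0.106). The ratio of Fosl1 to Fosl2 was 1.00, 0.320 and 0.477 in the controls and 0.397, 0.292 and 0.317 with LIGHT, and here the groups overlapped. Jun, Junb, Myc, Atf3, Egr2 and Egr3 were not called.

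Of 16 core genes of the relay itself, 2 rose (12.5%, against 17.7% of all tested genes) and 1 fell (6.25%, against 5.41%), shares near those of all genes, and the median log2 fold change was 0.03. Araf, a RAF kinase gene, rose from 23.6 ± 1.06 to 35.7 ± 0.340 TPM (limma: log2 difference 0.58, SE 0.08, adjusted p = 0.00357). Grb2, the adaptor between receptors and RAS activation, rose from 34.1 ± 2.88 to 42.2 ± 0.720 TPM (limma: log2 difference 0.30, SE 0.09, adjusted p = 0.0427). That call was lost under 10 of the 16 alternatives, both scalings and 5 single omissions among them (adjusted p up to 0.128 on leaving out 1 library).

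Of 10 genes of the parallel p38 and JNK branches, 3 rose (30%, against 17.7% of all tested genes) and 2 fell (20%, against 5.41%). Their median log2 difference was -0.07. Mapk12, a p38 kinase gene abundant in skeletal muscle, rose from 18.2 ± 1.08 to 31.7 ± 1.53 TPM (limma: log2 difference 0.76, SE 0.09, adjusted p = 0.00217), and Mapk11, another p38 gene, rose from 9.45 ± 0.639 to 16.7 ± 2.95 TPM (limma: log2 difference 0.75, SE 0.13, adjusted p = 0.00899). Skeletal muscle markers were at 4655 to 7901 TPM with LIGHT and 3061 to 5268 TPM in the controls. With those markers as a covariate in limma Mapk12 was called (adjusted p = 0.0365), while the calls of Mapk11 (adjusted p = 0.0519), Map2k6 (0.0802) and Map2k3 (0.165) were lost, as was that of Map2k4 (0.318). Map2k6, a p38-activating kinase gene, rose from 0.950 ± 0.150 to 2.09 ± 0.395 TPM (limma: log2 difference 0.66, SE 0.14, adjusted p = 0.0141), a call lost without LIGHT replicate 3 (adjusted p = 0.0572). Map2k3, another, fell from 123 ± 9.58 to 92.6 ± 9.45 TPM (limma: log2 difference -0.41, SE 0.10, adjusted p = 0.0268), a call lost when control replicate 2 or 3, or LIGHT replicate 1 or 3, was left out (adjusted p up to 0.0834). Map2k4, outside the naming rule and added after its values were seen, fell from 40.2 ± 1.42 to 32.2 ± 2.17 TPM (limma: log2 difference -0.31, SE 0.08, adjusted p = 0.0356), a call lost on leaving out any library but LIGHT replicate 1 (adjusted p up to 0.101). Leaving out any 1 library left 0 or 1 gene of the branch called lower.

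Among 9 other growth factor receptor genes 2 rose (22.2%, near the 17.7% of all tested genes) and 0 fell (against 5.41%). Their median log2 fold change was 0.16. Kit, the stem cell factor receptor gene of mast cells and melanocytes, was at 1.19, 1.07 and 0.900 TPM in the controls and 3.37, 3.04 and 4.33 TPM with LIGHT (limma: log2 difference 1.15, SE 0.14, adjusted p = 0.00247). Not all its control libraries reached 1 TPM, so Kit passed the filter only with LIGHT libraries counted. Fgfr1, a receptor of fibroblast growth factors, rose from 7.08 ± 1.03 to 13 ± 2.40 TPM (limma: log2 difference 0.79, SE 0.15, adjusted p = 0.0120). The call of Fgfr1 was lost with the skeletal muscle covariate (limma adjusted p = 0.146), and that of Kit with the filter at 5 TPM. Fibroblast markers overlapped between the groups, at 318 to 525 TPM in LIGHT and 274 to 400 TPM in control tumours. Their mean summed level was 1.30 times as high in LIGHT, and their part in the rise of Fgfr1 was not tested.

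Of the relatives of Phlda1, Phlda2, a pleckstrin-homology-domain gene best known for imprinting in the placenta, fell from 36.4 ± 4.33 to 22.6 ± 4.15 TPM (limma: log2 difference -0.67, SE 0.15, adjusted p = 0.0188), a call lost without control replicate 3 or LIGHT replicate 3 (adjusted p up to 0.0657). Phlda3, a target of p53, was at 234, 229 and 195 TPM in the controls and 262, 256 and 273 TPM with LIGHT and was not called (limma: log2 difference 0.27, SE 0.09, adjusted p = 0.0711). The difference between Phlda2 and Phlda3 was not tested. The ratio of Phlda1 to Phlda3 was 0.593, 0.389 and 0.532 in control and 0.196, 0.201 and 0.187 in LIGHT tumours, with no overlap. Phlda1 was chosen with its values known, and every LIGHT library of Phlda3 lay above every control library. The separation of the ratio follows from this and was not tested.

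Several of these calls were lost with the skeletal muscle covariate, which also took the calls among all genes from 3037 to 763. The cause of the losses was not tested. With the skeletal muscle covariate 3 pathway genes in place of 12 were called higher and 5 in place of 17 lower. Dusp1, Dusp2, Errfi1, Epha2, Mapk12 and Hbegf were called under all 16 alternatives.

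The genes whose pattern over the 6 libraries was most like the median of the 10, by the root mean square difference of log2(TPM + 1) centred on each gene's mean, were Cav2, Zc3h8, Mctp2, St3gal6, Slc16a1 and Galnt3. Their differences were 0.0439, 0.0458, 0.0507, 0.0576, 0.0657 and 0.0702, against a median of 0.383 over all tested genes. Cav2, which encodes a caveolin, was at 45.8, 33.0 and 34.6 TPM in the controls and 26.8, 21.4 and 23.9 TPM with LIGHT. Slc16a1, which encodes the lactate transporter MCT1, was at 32.6, 26.0 and 23.7 TPM in the controls and 18.1, 15.9 and 17.5 TPM with LIGHT. Both were highest in control replicate 1 within their group and had groups that did not overlap, which follows from choosing them by pattern. Of the 10 genes themselves, Spry2 (0.0832), Etv4 (0.1) and Dusp6 (0.104) were nearest to the shared pattern and Fosl1 (0.463) was farthest.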

How the data were processed

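Tongue tumour RNA, depleted of ribosomal RNA per the labels' protocols, was sequenced in 3 control and 3 LIGHT libraries. The authors deposited TPM per gene, with 1 column per library per the file headers; HISAT, Bowtie2 and GRCm38.p6 are named in the submitters' processing notes with no role or version, while which program gave the TPM, and with which annotation, is not stated in them. TPM are shares of 1 total and keep no depth, so no counting interval is given. Libraries were grouped by their titles, and p-values measure only the spread between these samples, which may be technical. A gene was tested if 3 or more libraries reached 1 TPM. The test was that of limma 3.58.1 (R 4.3.3) on log2(TPM + 1) (lmFit, eBayes with trend, 2-sided, Benjamini-Hochberg, adjusted p under 0.05), a procedure also tested on simulated data.

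The 10 genes, the lists and the tests were chosen with earlier results of these data known. Named genes are the 10, Tnfsf14, the called genes of each pathway list up to 4 by smallest unadjusted p, and the 6 genes most alike in pattern; others are named as context after their values were seen, and some genes of the lists are counted but not reported here by name. Alternatives were pseudocounts of 0.1 and 0.5, no filter or a filter at 5 TPM, trimmed-mean factors (30% of log ratios and 5% of levels trimmed), quantile normalization, each library left out, the replicate block, a basal keratinocyte or skeletal muscle covariate and no trend. Promoter windows came from RefSeq (GRCm38.p6) and transcripts from GENCODE M21 (GRCm38), to which 17698 of 18437 symbols matched. Plots were made in Python 3.11.15 (matplotlib 3.10.9).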

Additional observations from a re-analysis of the deposited data

How the results depend on the processing

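The log2 difference of the 10 genes was below 0 in every one under all 16 alternatives, except for Spry4 without control replicate 1 (0.01). Their median ran from -0.71 to -0.42 on leaving out 1 library, and the number called lower ran from 3 to 6. With the skeletal muscle covariate the median was -0.84 and 2 were called lower, and the cause was not tested. Over all genes, calls higher ran from 1145 to 1888 and calls lower from 314 to 773 on leaving out 1 library, where fewer samples enter the fit. Calls higher were 1410 after quantile normalization and 663 with the muscle covariate. Calls lower were 1731 with trimmed-mean factors, 1813 after quantile normalization and 100 with the muscle covariate. Of the 87 pathway genes, 7 to 16 were called lower on leaving out 1 library, 26 after quantile normalization and 5 with the muscle covariate, and 3 were called higher with that covariate. With the replicate block 2325 genes were called higher and 907 lower, and 7 of the 10 genes lower, Fosl1 being added. Deviations of same-numbered libraries correlated at 0.37, 0.24 and 0.01, and control replicate 3 correlated best with LIGHT replicate 2 (0.33), so the libraries share a number and were not treated as pairs. Depth is unknown, so its limit on low genes such as Spry4 cannot be given.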
